A study of Mus musculus with 21 samples.

Results

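The early response of the whole right lung to left pneumonectomy, the surgical removal of the left lung, was set against that of 2 of its single lobes, the medial and the cardiac lobe. The early response of a region is its mean log2 value on days 3 and 7 after pneumonectomy minus its mean on day 0, before surgery, and on day 56 after sham surgery. The lobe response is the mean of that of the medial and that of the cardiac lobe, and the difference throughout is the whole-lung response minus the lobe response. Of the 21 arrays of the series, 12 enter these values. The whole lung has 2 early and 2 control arrays, and so have the medial lobe and the cardiac lobe. The other 9 arrays, from days 14, 28 and 56 after pneumonectomy, serve in estimating the spread and in 1 later comparison. All samples were labelled as total RNA of the right lung of male C57BL/6 mice, with no genetic change named. Day 0 is labelled as without pneumonectomy, and no age of the mice is stated in the labels used. The labels do not say whether each sample was 1 animal or a pool, nor whether the regions of a time point came from the same animals. Each region has 1 array per time point and 1 after sham, so the arrays of a group differ in day or surgery. The p-values therefore measure the spread between the arrays of a group, which mixes change between these conditions with differences between samples. Some of that spread may be technical, and precision is limited by how few arrays there are.

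In rodents the remaining lung grows after pneumonectomy, and the first week is known for inflammation, deposition of matrix and division of alveolar, endothelial and mesenchymal cells. The cardiac lobe, also called the accessory lobe, is known in mice for expanding into the emptied side of the chest. A whole right lung contains the single lobes as well as other lobes, and can bring along central airways, large vessels and the tissue around the root of the lung, such as fat and lymph nodes.

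Markers of lung tissue were high on all 12 arrays. Sftpc, surfactant protein C of alveolar type II cells, lay between 13.18 and 13.45 on the log2 scale. Scgb1a1, the secretoglobin of club cells, lay between 12.83 and 13.40, and Pecam1, an endothelial adhesion molecule, between 9.92 and 11.17. The arrays differed in their small RNA signal. The mean log2 value of 61 small nuclear and nucleolar RNA genes was 8.15 and 8.43 on the early and 7.89 and 8.96 on the control arrays of the whole lung, and 7.01 to 7.45 on 7 of the 8 lobe arrays. The day 7 cardiac lobe array, at 8.26, was the exception, and it also had the narrowest interquartile range of its region (3.55). The day 56 pneumonectomy array of the whole lung was at the extreme of all 21 in small RNA mean (9.93, the highest) and in interquartile range (3.39, the narrowest), though neither gap passed Dixon's critical value within its region. Counts without these 2 arrays are given below as counts without the 2 doubted arrays.

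No gene passed the test of the difference between the whole-lung and the lobe response. The count was 0 of 19938 genes (0% called; limma, adjusted p under 0.05), and the smallest adjusted p was 0.996. At an unadjusted p under 0.05 there were 447 genes (2.24% of those tested), 240 with a higher and 207 with a lower response in the whole lung. At that threshold 5% would be expected if no gene differed. The median difference over all genes was -0.002 and 49.6% of the genes were positive. The standard error of the difference had a median of 0.173 on the log2 scale. For 18390 genes (92.2%) the 95% interval of the difference lay within 1 log2 unit of 0 on both sides, and for 9883 genes (49.6%) within 0.5. A difference of more than 1 log2 unit was measured for 44 genes, 26 of them positive and 18 negative. Without the 2 doubted arrays the count was also 0. It was 4 without the day 7 whole-lung array (Acod1, Car6, Cxcl2 and Gpr84, all higher in the whole lung), 2 without the whole-lung sham array (Glycam1 and Cd209b, both lower), and 0 without any other single array.

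Both regions had called genes of their own. In the whole lung 187 genes differed between early and control arrays (0.938% of those tested), 153 higher (0.767%) and 34 lower (0.171%). In the lobes 1409 genes differed (7.07%), 694 higher (3.48%) and 715 lower (3.59%). The lobe response rests on 8 arrays and the whole-lung response on 4. On 4 arrays each, 187 genes passed in the whole lung, 6 in the medial lobe alone and 1153 in the cardiac lobe alone. All 187 genes called in the whole lung had the same sign in the lobes, and 169 of them were called there too. Those 169 genes were 90.4% of the genes called in the whole lung and 12% of those called in the lobes. Of the 1409 genes called in the lobes, 1371 (97.3%) had the same sign in the whole lung, against 64.5% of the 18529 genes not called in the lobes. No gene was called in opposite directions. Across all 19938 genes the whole-lung and the lobe response had a Pearson correlation of 0.719, and the medial and the cardiac lobe response 0.703. Genes are not independent replicates, and the responses share no array but may share animals. Among genes called in the lobes the median size of the response was 0.386 in the whole lung and 0.521 in the lobes, where the genes had been chosen. Among genes called in the whole lung it was 1.047 in the whole lung, where they had been chosen, and 0.909 in the lobes.

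The counts depended on single arrays. In the whole lung, 1 gene was left without its day 3 array, 568 passed without its day 7 array, 16 without its day 0 array and 3 without its sham array. Without the 2 doubted arrays 465 genes passed in the whole lung and 1082 in the lobes. Leaving out either early cardiac array gave 338 genes in the whole lung, since both cases drop the same residual. In the lobes the count was 4816 without the day 3 cardiac array and 854 without the day 7 cardiac array. It lay between 697 and 884 without any 1 medial early array or any 1 lobe control array. Dropping any 1 of the 4 lobe control arrays left 103 or 105 genes in the whole lung, and dropping the day 28 or day 56 array of either lobe or the day 14 whole-lung array left 100 to 121. The calls of single genes named below hold with all 21 arrays in the fit.

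**Figure D1:**
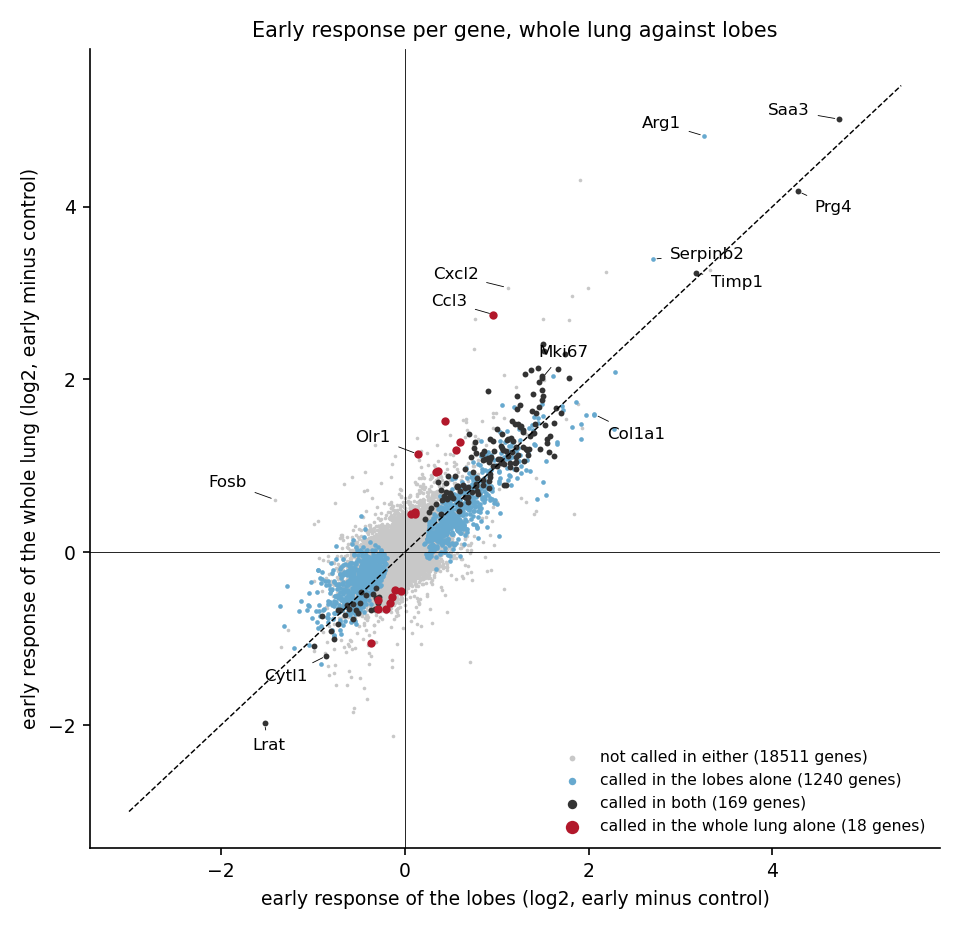
Early response of each of 19938 genes in the whole lung (vertical axis, log2) against the mean response of the medial and cardiac lobes (horizontal axis, log2). Colours give where a gene was called, and the dashed line marks equal responses. Saa3, Prg4 and Timp1 lie near the line, Arg1, Cxcl2 and Ccl3 above it and Col1a1 below it.

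Of the 6 largest rises of the whole lung, 5 passed in the lobes too, and Ccl3, described with the chemokines, did not. Saa3, an acute-phase serum amyloid, had log2 values of 12.49 and 11.31 on the early and 6.92 and 6.86 on the control arrays of the whole lung. In the medial lobe Saa3 had 11.79 and 9.81 early against 6.95 and 7.09 in control, and in the cardiac lobe 11.92 and 12.39 early against 6.44 and 6.54 in control. All 6 early values lay above all 6 control values, in every region. Saa3 rose 32.2-fold in the whole lung (log2 5.01 ± 0.81 SE, limma adjusted p = 0.0164) and 26.4-fold in the lobes (4.72 ± 0.57, adjusted p = 0.000312), a difference of 0.29 with a 95% interval from -1.81 to 2.39.

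Timp1, an inhibitor of matrix metalloproteinases, had 11.58 and 10.59 on the early and 7.93 and 7.78 on the control arrays of the whole lung. In the medial lobe Timp1 had 10.78 and 10.42 early against 7.59 and 7.90 in control, and in the cardiac lobe 11.50 and 11.27 early against 7.80 and 7.99 in control. The early and control values were apart in each region. Timp1 rose 9.41-fold in the whole lung (limma adjusted p = 0.0164) and 9.02-fold in the lobes (adjusted p = 0.000183), and the difference was 0.06 (95% interval -1.18 to 1.31). Prg4, the lubricating proteoglycan lubricin made by joint and mesothelial cells, rose 18.1-fold in the whole lung (adjusted p = 0.0484) and 19.4-fold in the lobes (adjusted p = 0.0014). Its early values ran from 9.55 to 10.55 and its control values from 5.44 to 6.65, apart in every region. Gatm, an enzyme of creatine synthesis, rose 5.03-fold in the whole lung and 2.86-fold in the lobes (adjusted p = 0.0433 and 0.019). Serpinb2, an inhibitor of plasminogen activators, and Cd5l, a protein secreted by macrophages, rose 6.49-fold and 4.86-fold in the lobes, and were 10.5-fold and 4.23-fold higher in the whole lung without passing (adjusted p = 0.129 and 0.311). Wt1, a transcription factor of the mesothelium, rose by log2 0.96 ± 0.18 in the whole lung and 1.20 ± 0.13 in the lobes (limma adjusted p = 0.024 and 0.000183), with a difference of -0.24 (95% interval -0.70 to 0.22). Of the 14 measured mesothelial genes 2 rose in the whole lung and 7 in the lobes, and none passed in the difference. The shares called higher over all genes were 0.767% in the whole lung and 3.48% in the lobes.

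**Figure D2:**
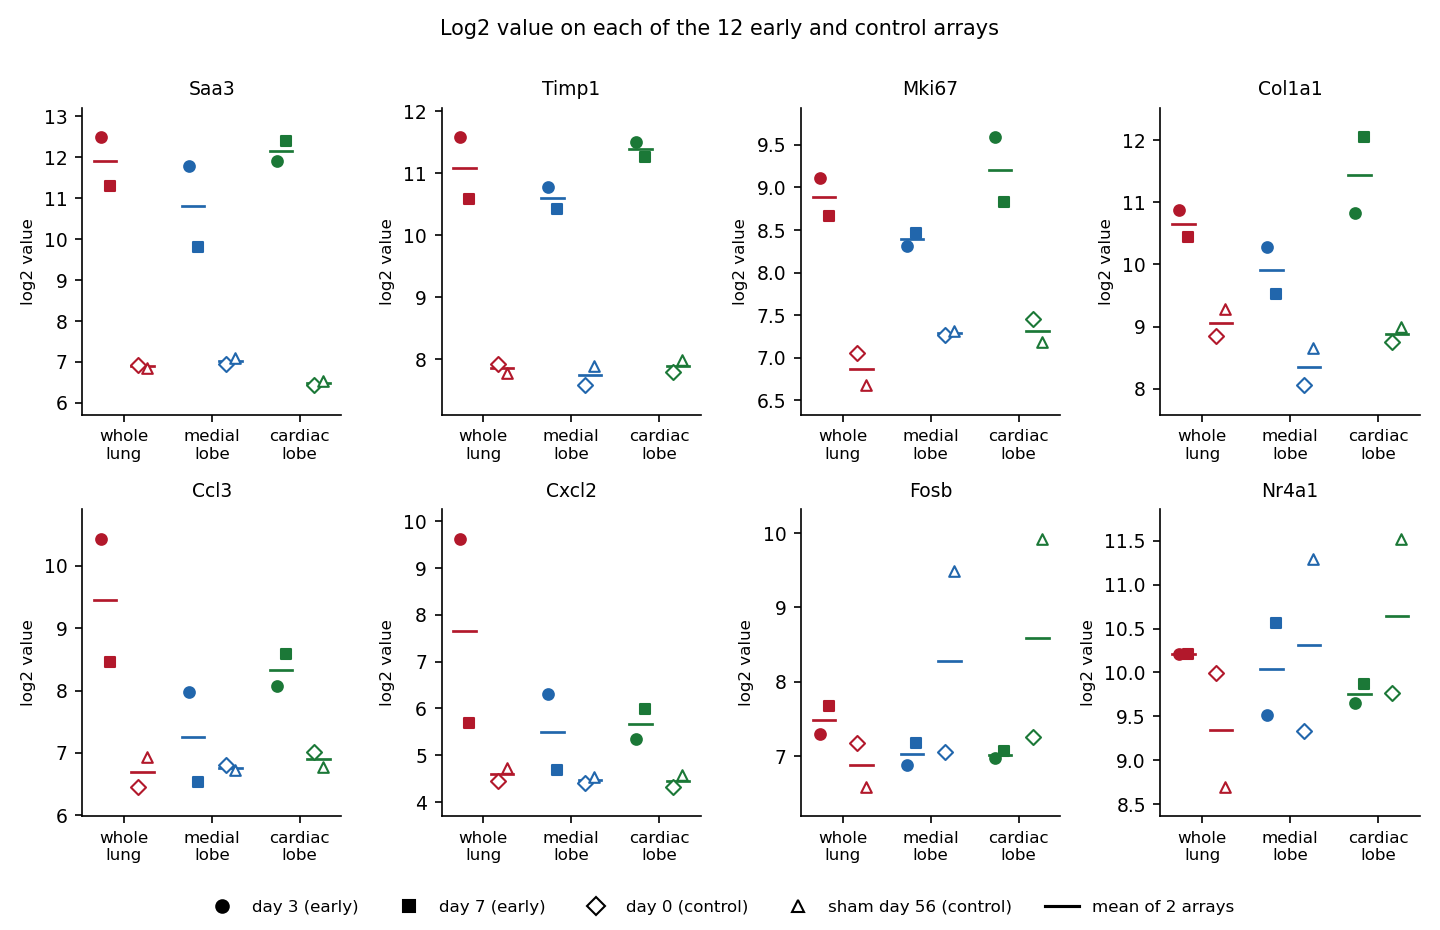
Log2 value of 8 genes on each of the 12 arrays, by region, with early arrays filled, control arrays open and a bar at the mean of 2 arrays. Early values of Saa3, Timp1, Mki67 and Col1a1 lie above control values in all 3 regions, the day 3 whole-lung array leads for Ccl3 and Cxcl2, and the lobe sham arrays lead for Fosb and Nr4a1.

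Genes of cell division were higher in both. Of 29 measured mitosis genes 19 rose in the whole lung and 27 in the lobes, and none passed in the difference. Their median response was 1.47 in the whole lung and 1.21 in the lobes, and 20 of the 29 differences were positive. Mki67, the proliferation marker Ki-67, had 9.11 and 8.67 on the early and 7.06 and 6.68 on the control arrays of the whole lung. The medial lobe had 8.31 and 8.47 early against 7.27 and 7.31 in control, and the cardiac lobe 9.59 and 8.83 early against 7.45 and 7.18 in control. No early value of Mki67 overlapped a control value. Mki67 rose by 2.02 ± 0.34 in the whole lung (limma adjusted p = 0.0177) and by 1.5 ± 0.24 in the lobes (adjusted p = 0.00156). The difference of 0.52 had a 95% interval from -0.35 to 1.39. Cdk1, the kinase that drives entry into mitosis, rose by 2.13 ± 0.41 and 1.45 ± 0.29 in the whole lung and the lobes (limma adjusted p = 0.0282 and 0.00682). Top2a, the topoisomerase that disentangles chromosomes, rose by 2.04 ± 0.34 and 1.5 ± 0.24 (adjusted p = 0.0195 and 0.00187). The control levels of Mki67, Cdk1 and Top2a, whole lung minus lobes, were -0.43, -0.60 and -0.58, values that share their control arrays with the differences and did not pass (limma unadjusted p = 0.155, 0.11 and 0.0715). Against the medial lobe alone the median difference of the mitosis genes was 0.44, against the cardiac lobe alone -0.08, and without the 2 doubted arrays -0.06. It was 0.30 on day 3 alone and 0.07 on day 7 alone.

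DNA replication genes, which copy the genome before mitosis, had a smaller response. Of 29 measured genes 5 rose in the whole lung and 24 in the lobes, with median responses of 0.55 and 0.70 and a median difference of -0.06. Rrm2, a subunit of ribonucleotide reductase, rose by 1.38 ± 0.29 in the whole lung and 1.40 ± 0.21 in the lobes (limma adjusted p = 0.0413 and 0.00106), a difference of -0.02 (95% interval -0.78 to 0.75). Of 26 replication-dependent histone genes, which package newly made DNA, 7 rose in the whole lung and 12 in the lobes, with a median difference of 0.05. In all 3 of these lists the whole lung had fewer calls than the lobes. The same held over all genes, of which 0.767% were called higher in the whole lung and 3.48% in the lobes.

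Fibrillar collagen genes leaned toward a smaller response in the whole lung. All 9 measured members had a negative difference, with a median of -0.27. In the whole lung 1 of the 9 rose and in the lobes 6, with median responses of 0.33 and 0.77. The shares called higher over all genes were 0.767% in the whole lung and 3.48% in the lobes. Col1a1, a chain of collagen I, had 10.88 and 10.44 on the early and 8.84 and 9.29 on the control arrays of the whole lung. The medial lobe had 10.29 and 9.53 early against 8.06 and 8.65 in control, and the cardiac lobe 10.83 and 12.05 early against 8.75 and 9.0 in control. Early and control values were apart in each region, and the day 7 cardiac array stood highest. Col1a1 was higher by 1.6 ± 0.48 in the whole lung, which did not pass (limma adjusted p = 0.159), and rose by 2.06 ± 0.34 in the lobes (adjusted p = 0.00214). The difference of -0.47 had a 95% interval from -1.73 to 0.80. Against the medial lobe alone the median difference of the 9 genes was -0.10, against the cardiac lobe alone -0.71, and without the 2 doubted arrays -0.11. Col3a1, a chain of collagen III, had a difference of -0.60 ± 0.55, and Col5a1, a chain of collagen V, had -0.45 ± 0.26. Thbs2, a matricellular thrombospondin, had 6.38 and 5.76 early against 5.84 and 5.92 in control in the whole lung. It had 6.24 and 5.92 early against 5.60 and 5.58 in control in the medial lobe, and 7.28 and 7.27 early against 5.68 and 5.74 in control in the cardiac lobe. Early and control values of Thbs2 overlapped in the whole lung and were apart in both lobes. Its difference of -0.84 ± 0.22 was among the smallest unadjusted p-values (limma adjusted p = 0.996).

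The list of monocyte chemokines and receptors had its highest mean of the 12 arrays, 8.90, on the day 3 array of the whole lung. Ccl3, a chemokine for monocytes and other leukocytes, had 10.43 and 8.46 on the day 3 and day 7 arrays of the whole lung against 6.46 and 6.94 on its control arrays. The medial lobe had 7.98 and 6.53 early against 6.80 and 6.73 in control, and the cardiac lobe 8.08 and 8.59 early against 7.02 and 6.77 in control. Early and control values of Ccl3 were apart in the whole lung and the cardiac lobe, and overlapped in the medial lobe. Ccl3 rose 6.73-fold in the whole lung (log2 2.75 ± 0.54, limma adjusted p = 0.0307), while its 1.95-fold difference in the lobes did not pass (adjusted p = 0.131). The difference was 1.78 ± 0.66 with a 95% interval from 0.39 to 3.18 (unadjusted p = 0.0155, adjusted p = 0.996). Ccl2, which draws monocytes through the receptor Ccr2, rose 5.32-fold in the whole lung and 2.85-fold in the lobes (limma adjusted p = 0.0267 and 0.0108), a difference of 0.90 (95% interval -0.29 to 2.09). Of 14 measured monocyte chemokines and receptors 3 rose in the whole lung, against 4 that rose and 1 that fell in the lobes. The shares over all genes were 0.767% higher in the whole lung, and 3.48% higher and 3.59% lower in the lobes. Of the 14 differences 11 were positive with a median of 0.25. On day 3 alone 13 were positive with a median of 0.51, and on day 7 alone 7 with a median of 0.00.

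With day 3 as the only early day, 6 genes passed in the difference, all with a higher response in the whole lung. They were Acod1 (log2 3.59), Cxcl2 (3.67), Car6 (2.30), Gpr84 (1.25), Ccl2 (1.79) and Slc16a3 (1.32), named after their values were seen, and limma's adjusted p ran from 6.43e-05 to 0.0163. This setting compares 1 whole-lung array with 1 array of each lobe and borrows its spread from the other arrays, so it cannot separate day 3 of the whole lung from that single sample. Cxcl2, a neutrophil chemoattractant, had 9.62 on day 3 and 5.68 on day 7 in the whole lung against 4.45 and 4.73 in control. In the medial lobe it had 6.31 and 4.68 early against 4.41 and 4.53 in control, and in the cardiac lobe 5.34 and 5.99 early against 4.33 and 4.57 in control. All early values of Cxcl2 lay above the control values of their region, the day 3 whole-lung value far above the rest. Acod1, an enzyme that makes itaconate in activated macrophages, had 9.96 on the day 3 whole-lung array and at most 7.02 on any other of the 12. With day 7 as the only early day no gene passed (1365 at an unadjusted p under 0.05), and the differences of Acod1 and Cxcl2 were 0.30 and 0.22. Of 18 measured inflammatory cytokine genes 13 had a positive difference, with a median of 0.26. On day 3 alone 14 were positive with a median of 0.49, on day 7 alone 8 with a median of -0.08, and with sham as the only control the median was 0.07. Among them Il6, interleukin 6, rose by 1.20 ± 0.21 in the whole lung and 0.75 ± 0.15 in the lobes (limma adjusted p = 0.0235 and 0.00741).

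Genes of alternatively activated macrophages differed widely between the early arrays of 1 region. Arg1, arginase 1, had 11.58 and 9.53 on the early and 5.79 and 5.68 on the control arrays of the whole lung. The medial lobe had 9.71 and 6.35 early against 5.52 and 5.67 in control, and the cardiac lobe 8.82 and 10.94 early against 5.75 and 5.84 in control. All early values lay above all control values. Arg1 rose 9.56-fold in the lobes (limma adjusted p = 0.0229) and was 28.2-fold higher in the whole lung without passing (adjusted p = 0.0566). Its difference of 1.56 had a 95% interval from -1.37 to 4.49. Ccl24, an eosinophil chemoattractant, had 7.70 in the whole lung on day 7, where the medial lobe had 5.4 and the cardiac lobe 10.81. Rnase2a, an eosinophil-type ribonuclease with close relatives whose probe sets were not checked for cross-hybridisation, had the largest positive difference of all genes at 2.40 (95% interval -2.14 to 6.93). It had 7.36 and 10.90 early against 4.73 and 4.91 in control in the whole lung, 4.78 and 5.35 early against 5.81 and 5.01 in control in the medial lobe, and 7.28 and 11.86 early against 5.89 and 4.94 in control in the cardiac lobe. The high day 7 value was thus present in the whole lung and the cardiac lobe but not in the medial lobe. That cardiac array is 1 of the 2 doubted arrays. Of 16 genes on this list 2 rose in the whole lung and 4 in the lobes, where 0.767% and 3.48% of all genes were called higher. Of the 16 differences 12 were positive. The median difference was 0.62 against the medial lobe alone, -0.10 against the cardiac lobe alone and 0.37 without the 2 doubted arrays.

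The largest falls of the whole lung were shared by the lobes, apart from that of Acoxl. Lrat, which esterifies retinol for storage, had 7.69 and 7.22 early against 9.97 and 8.90 in control in the whole lung. It had 8.04 and 7.38 early against 8.61 and 8.99 in control in the medial lobe, and 7.60 and 6.71 early against 8.87 and 9.36 in control in the cardiac lobe. Lrat lay lower on both early arrays than on both control arrays of each region. It fell 3.94-fold in the whole lung and 2.88-fold in the lobes (limma adjusted p = 0.024 and 0.00222), a difference of -0.45 (95% interval -1.39 to 0.49). Cytl1, a small secreted protein, Pxdc1, and Angpt2, an antagonist of the endothelial receptor Tie2, fell 2.29-fold, 2.12-fold and 2.01-fold in the whole lung and 1.81-fold, 1.98-fold and 1.71-fold in the lobes. Among the largest falls of the lobes, Ifi208, an interferon-inducible gene with close relatives, Cyp1a1, Ces1g, a carboxylesterase, and Adcy8, an adenylyl cyclase, had lobe responses of -1.32, -1.28, -1.13 and -1.06 and whole-lung values of -0.85, -0.39, -0.57 and -0.67. Lyve1, a receptor of lymphatic endothelium, fell by 0.78 ± 0.12 in the whole lung and by 0.57 ± 0.09 in the lobes (limma adjusted p = 0.0164 and 0.00117), with a difference of -0.21 ± 0.15. The list of 8 lymphatic endothelium genes did not share that fall. In the whole lung and in the lobes alike 1 of the 8 fell and 4 had a positive response, with medians of -0.11 and -0.01. The shares called lower over all genes were 0.171% in the whole lung and 3.59% in the lobes.

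Of 14 alveolar type I genes 2 fell in the whole lung and 8 in the lobes, where 0.171% and 3.59% of all genes were called lower. The median responses of the 14 genes were -0.41 and -0.32, with a median difference of -0.07. That difference turned between the days, from -0.24 with 0 of 14 positive on day 3 alone to 0.20 with 10 of 14 positive on day 7 alone. In samples of bulk tissue, fewer cells of a type and less RNA per cell cannot be told apart. Rtkn2, a marker of type I cells, fell by 0.91 ± 0.19 in the whole lung and by 0.80 ± 0.14 in the lobes (limma adjusted p = 0.0409 and 0.00247), a difference of -0.11 (95% interval -0.60 to 0.39). Ager, the receptor for advanced glycation end products and a type I cell marker, had 11.73 and 11.99 early against 12.37 and 12.39 in control in the whole lung. It had 12.50 and 12.47 early against 12.54 and 12.50 in control in the medial lobe, and 12.20 and 12.30 early against 12.50 and 12.47 in control in the cardiac lobe. Early values of Ager lay below control values in the whole lung and the cardiac lobe, and overlapped them in the medial lobe. Its fall of 0.52 ± 0.10 in the whole lung passed (adjusted p = 0.0309), its lobe value of -0.14 ± 0.07 did not (adjusted p = 0.252), and the difference was -0.39 (95% interval -0.65 to -0.12, unadjusted p = 0.00759, adjusted p = 0.996). None of 16 alveolar type II genes passed in either region, and 15 of their differences were negative with a median of -0.26. That median was -0.33 on day 3 alone, -0.09 on day 7 alone, -0.38 against the medial lobe alone and -0.10 against the cardiac lobe alone.

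The 18 genes called in the whole lung but not in the lobes were picked on that contrast, so their differences are set away from 0 by that choice. Beside Ccl3 and Ager they included Olr1, a scavenger receptor for oxidised lipoprotein, which had 9.53 and 8.87 early against 8.20 and 7.93 in control in the whole lung. In the medial lobe Olr1 had 9.15 and 9.16 early against 9.29 and 9.15 in control, and in the cardiac lobe 9.25 and 9.28 early against 9.02 and 8.80 in control. The 2 control values of the whole lung were the lowest of the 12. Its day 3 value lay above the 4 early lobe values and its day 7 value below them. Olr1 rose by 1.14 ± 0.23 in the whole lung (limma adjusted p = 0.0385) and differed by 0.14 ± 0.17 in the lobes. Its difference of 0.99 ± 0.29 (95% interval 0.38 to 1.61) stood beside a control level, whole lung minus lobes, of -1.0. Tnip3, an inhibitor of NF-kappaB signalling, had a difference of 1.08 ± 0.39, Acoxl, an acyl-CoA oxidase relative, -0.68 ± 0.26, and Oas2, an interferon-induced antiviral enzyme, 0.62 ± 0.31.

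**Figure D3:**
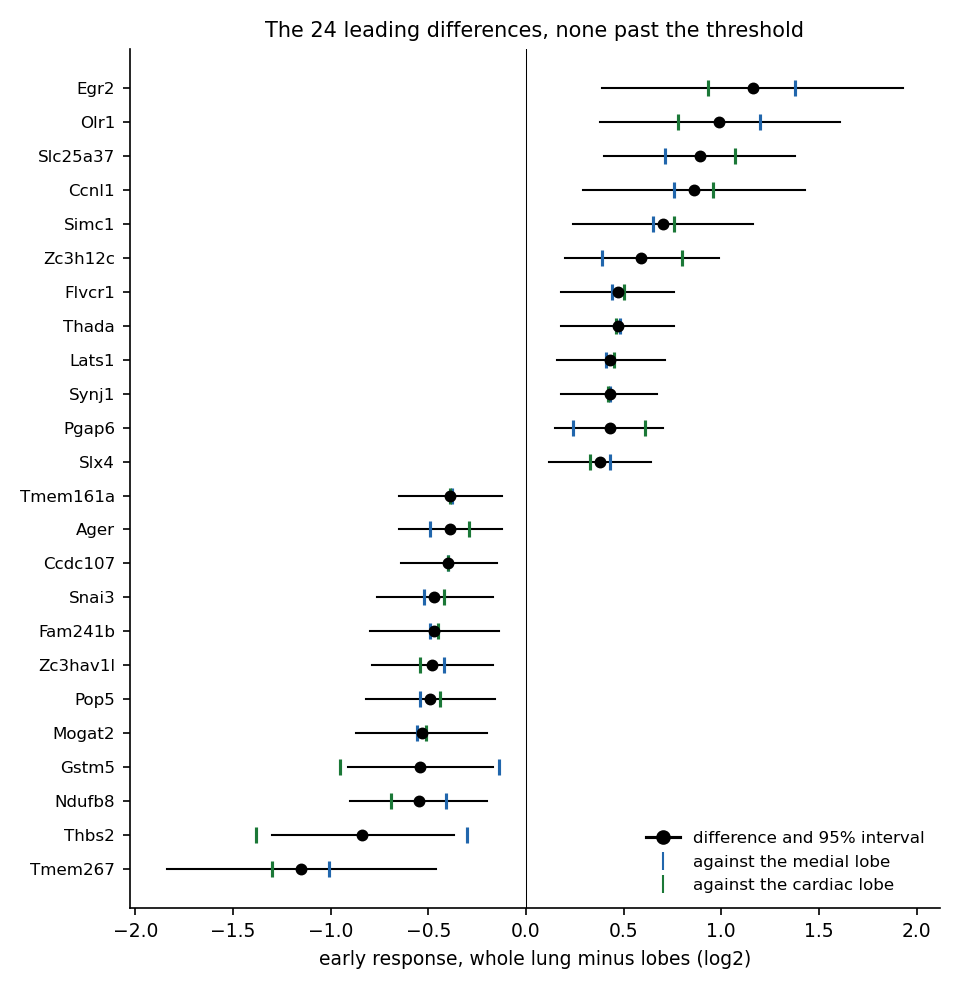
The 12 positive and 12 negative differences (log2, whole lung minus lobes) with the smallest unadjusted p and the same sign against each lobe, with 95% intervals. Coloured ticks give the difference against the medial and against the cardiac lobe, and none of the 24 passed after adjustment.

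None of the 24 leading differences passed (limma adjusted p = 0.996 for each). On the positive side stood Slc25a37 (0.89) and Flvcr1 (0.47), an iron importer of mitochondria and a heme exporter, along with Olr1, Egr2 (1.16), Ccnl1 (0.86), Simc1 (0.70), Zc3h12c (0.59), Thada (0.47), Synj1, Lats1 and Pgap6 (each 0.43) and Slx4 (0.38). Slc25a37 had 8.29 and 8.26 early against 7.96 and 7.74 in control in the whole lung. In the medial lobe it had 7.85 and 7.60 early against 8.08 and 7.94 in control, and in the cardiac lobe 7.66 and 7.09 early against 8.03 and 8.04 in control. Early values of Slc25a37 lay above control values in the whole lung and below them in both lobes. On the negative side stood Tmem267 (-1.15), Thbs2 (-0.84), Ndufb8 (-0.55), Gstm5 (-0.54), Mogat2 (-0.53), Pop5 (-0.49), Zc3hav1l (-0.48), Snai3 and Fam241b (each -0.47), Ccdc107 (-0.40), and Ager and Tmem161a (each -0.39). Ndufb8 is a subunit of respiratory complex I, Gstm5 a glutathione transferase, and Pop5 a subunit of ribonuclease P. Tmem267 had 7.39 and 7.2 early against 8.03 and 7.94 in control in the whole lung, 7.85 and 7.42 early against 7.19 and 7.45 in control in the medial lobe, and 8.03 and 7.99 early against 7.48 and 7.32 in control in the cardiac lobe. Its early values were below the control values in the whole lung, above them in the cardiac lobe and overlapping with them in the medial lobe.

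Among 57 gene lists the immediate early genes had the highest median difference, 0.50, and no member passed. These genes are transcribed within minutes of a stimulus to a cell. Each of the 22 measured members had a difference of at least 0.00, the largest being that of Fosb at 2.02, against 49.6% positive over all genes. The mean of the 22 genes was 9.03 and 8.82 on days 3 and 7, 8.72 on day 0 and 8.26 on the sham array in the whole lung. It was 8.63, 8.76, 8.60 and 9.24 in the same order in the medial lobe and 8.69, 8.87, 8.70 and 9.45 in the cardiac lobe. The sham array was thus the lowest of the 4 in the whole lung and the highest of the 4 in both lobes. With day 0 as the only control the median difference was 0.04, and with sham as the only control 0.86. Each region has 1 sham array, so sham surgery and that single sample cannot be told apart.

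The genes of the Nr4a family of nuclear receptors, which act as transcription factors without a known natural hormone, had like values on the sham arrays, and none of the 3 passed in the difference. Their promoters from RefSeq (GRCm38.p6, from 250 bases before to 50 after the gene's start) are shown because all 3 hold the same short motif several times. Capitals mark TGACG or, on the other strand, CGTCA, the core of the cyclic AMP response element bound by CREB. Both strands were searched, overlapping matches were counted, and each of the 3 windows held 4 matches, none overlapping another. The count covered 27025 mouse promoters of the same length, with the promoters of a whole chromosome left out. Of these 27025 promoters 5681 (21%) held at least 1 match and 68 (0.252%) at least 4. They included 17 immediate early promoters, of which 11 held at least 1 match. The shares therefore do not cover every mouse promoter or every immediate early gene. A match describes these letters only.
Nr4a1, chr15:101266596-101266895, plus strand: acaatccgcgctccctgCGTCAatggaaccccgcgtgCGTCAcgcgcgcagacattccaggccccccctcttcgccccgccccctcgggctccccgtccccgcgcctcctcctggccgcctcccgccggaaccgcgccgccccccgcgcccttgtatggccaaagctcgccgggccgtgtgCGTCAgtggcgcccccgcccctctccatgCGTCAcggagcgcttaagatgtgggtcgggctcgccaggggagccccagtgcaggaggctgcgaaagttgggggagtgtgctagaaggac
Nr4a2, chr2:57123954-57124253, minus strand: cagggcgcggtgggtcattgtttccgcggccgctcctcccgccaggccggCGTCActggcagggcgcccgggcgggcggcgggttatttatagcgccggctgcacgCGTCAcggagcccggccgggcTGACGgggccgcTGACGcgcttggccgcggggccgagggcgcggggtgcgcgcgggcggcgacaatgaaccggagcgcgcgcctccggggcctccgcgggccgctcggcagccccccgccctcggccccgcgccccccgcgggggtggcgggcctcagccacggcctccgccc
Nr4a3, chr4:48045055-48045354, plus strand: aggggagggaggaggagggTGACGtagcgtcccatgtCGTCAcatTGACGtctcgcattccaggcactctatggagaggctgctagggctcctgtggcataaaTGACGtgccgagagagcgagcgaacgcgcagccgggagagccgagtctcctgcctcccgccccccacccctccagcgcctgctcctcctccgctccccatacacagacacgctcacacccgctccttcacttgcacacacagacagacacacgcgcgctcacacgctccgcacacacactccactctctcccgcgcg

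Nr4a1 had 10.21 and 10.21 on days 3 and 7 against 9.99 on day 0 and 8.70 after sham surgery in the whole lung. The medial lobe had 9.52 and 10.56 early against 9.33 on day 0 and 11.29 after sham, and the cardiac lobe 9.65 and 9.87 early against 9.77 on day 0 and 11.52 after sham. The sham value was lowest in the whole lung and highest in both lobes. Its difference was 1.45 ± 0.73 (limma unadjusted p = 0.0672, adjusted p = 0.996), -0.13 against day 0 alone and 3.02 against sham alone. Nr4a2 and Nr4a3 had differences of 1.34 ± 0.67 and 1.56 ± 0.86, which were 0.03 and -0.13 against day 0 alone and 2.65 and 3.25 against sham alone. Fosb, a subunit of the AP-1 transcription factor, had 6.59 after sham in the whole lung, where the medial lobe had 9.49 and the cardiac lobe 9.92, and between 6.88 and 7.68 on the other 9 arrays. Egr2, a zinc finger factor, kept more of its difference against day 0 alone, at 0.59 (1.16 ± 0.36 against both controls).

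Clock genes, which run the daily rhythm of cells, also differed between the controls. Of 16 measured clock genes 15 had a positive difference, with a median of 0.36, and none passed in the difference or in either region. Dbp, a transcription factor with a strong daily rhythm, had 9.48 and 9.63 early against 10.23 on day 0 and 7.08 after sham in the whole lung. It had 9.66 and 9.67 early against 10.24 and 8.14 in the medial lobe, and 9.30 and 9.06 early against 10.26 and 7.92 in the cardiac lobe. The early values of Dbp lay between day 0 and sham in each region. Arntl, which is high when Dbp is low, had 8.01, 8.35 and 8.40 on the sham arrays of the whole lung, the medial and the cardiac lobe and 6.09 to 6.83 on the other 9. Per1, a clock repressor that stimuli can also induce, had 7.78 after sham in the whole lung, 9.69 in the medial lobe and 9.82 in the cardiac lobe, and its difference was 1.31 (95% interval -0.32 to 2.93).

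**Figure D4:**
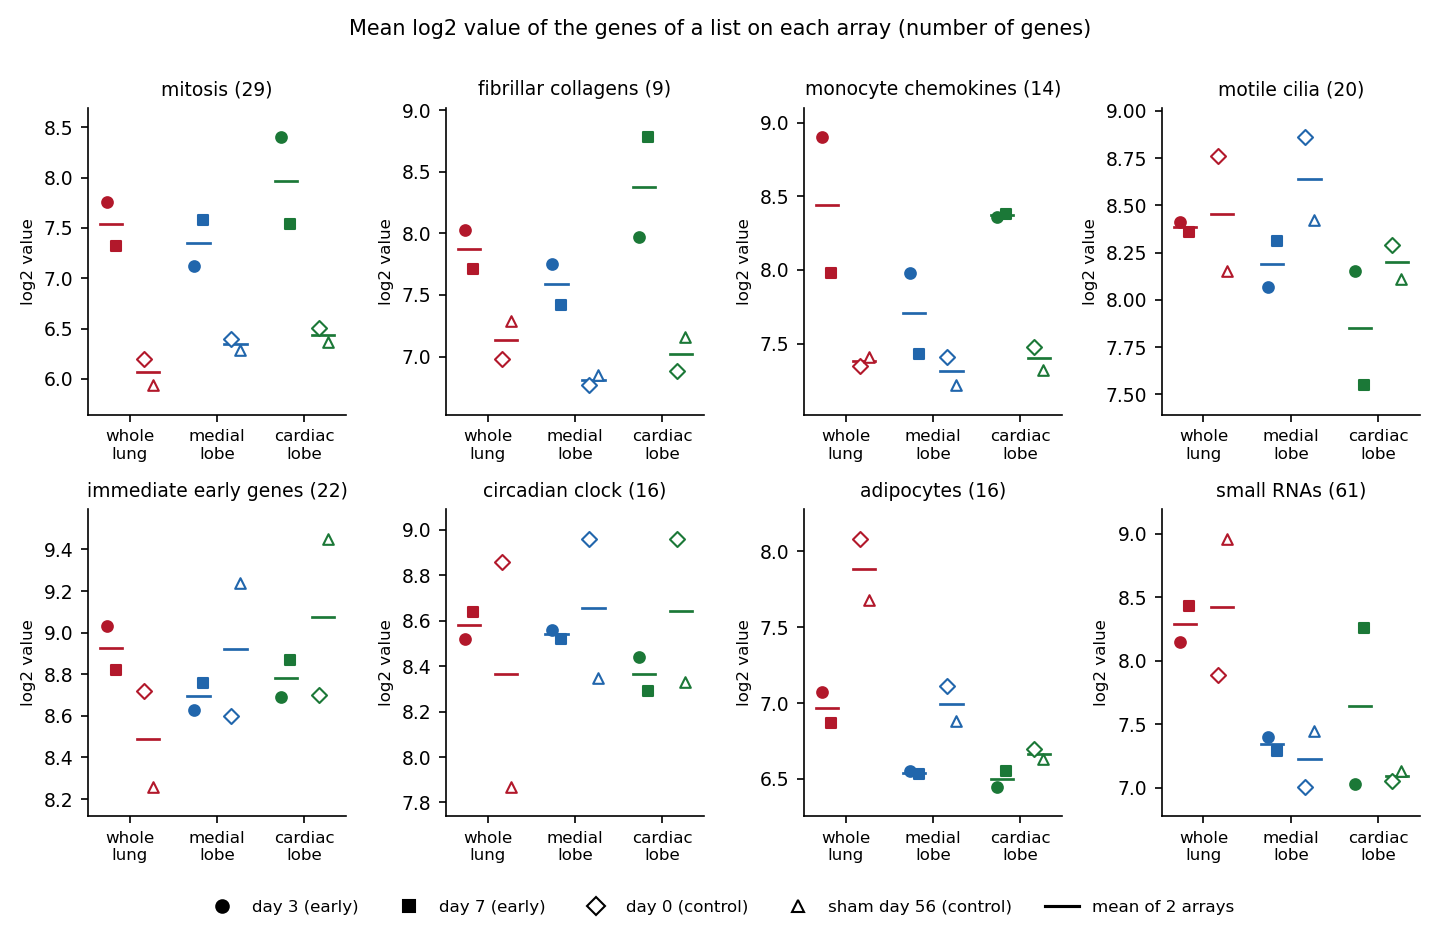
Mean log2 value of the genes of 8 lists on each of the 12 arrays, by region, with early arrays filled and control arrays open. Mitosis genes and fibrillar collagens are apart between early and control arrays in every region, the adipocyte list is highest on the 2 whole-lung control arrays, and the immediate early list is highest on the lobe sham arrays.

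Over all genes 0.171% were called lower in the whole lung and 3.59% in the lobes, so a short list would seldom hold a called fall in the whole lung. Of 20 motile cilium genes 2 fell in the lobes and none in the whole lung, with median responses of -0.07 in the whole lung and -0.41 in the lobes. The difference was positive for 19 genes, with a median of 0.33, and none passed. The mean of the list was 8.41 and 8.36 early against 8.76 and 8.15 in control in the whole lung. It was 8.07 and 8.31 early against 8.86 and 8.42 in control in the medial lobe, and 8.15 and 7.55 early against 8.29 and 8.11 in control in the cardiac lobe. Early values overlapped the control values in the whole lung and the cardiac lobe and lay below them in the medial lobe. Rsph4a, a radial spoke protein of the cilium, had the largest difference of the list, 0.87 ± 0.75, with 6.92 on the day 7 cardiac array and 8.97 to 10.21 on the other 11. Of 14 club cell genes 3 fell in the lobes and none in the whole lung, and 10 of their differences were positive, with a median of 0.23. That median was 0.01 with 8 of 14 positive without the 2 doubted arrays, -0.07 against the medial lobe alone, and -0.04 with 4 of 14 positive on day 3 alone. The mean of the club cell list was 10.75 on the doubted day 7 cardiac array and 11.32 to 12.18 on the other 11 arrays. Sult1d1, a sulfotransferase, fell 2.57-fold in the lobes (limma adjusted p = 0.0121) and lay 1.54-fold lower in the whole lung (adjusted p = 0.742), a difference of 0.74 (95% interval -0.36 to 1.83).

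Fat genes had the lowest median difference of the 57 lists, -0.66, and none of 16 adipocyte genes passed in the difference. The mean of the list was 7.07 and 6.87 on the early and 8.08 and 7.68 on the control arrays of the whole lung. It was 6.55 and 6.53 early against 7.11 and 6.88 in control in the medial lobe, and 6.45 and 6.55 early against 6.70 and 6.63 in control in the cardiac lobe. The 2 control arrays of the whole lung stood above the other 10. Of the 16 differences 14 were negative, and the median control level of the list was 1.22 higher in the whole lung than in the lobes. Adipoq, the fat hormone adiponectin, had 7.55 and 7.23 early against 8.99 and 8.93 in control in the whole lung. It had 6.74 and 6.67 early against 7.72 and 7.43 in control in the medial lobe, and 6.68 and 6.49 early against 6.82 and 6.37 in control in the cardiac lobe. Early values were below control values in the whole lung and the medial lobe and overlapped them in the cardiac lobe. Its difference was -1.13 ± 0.91 (95% interval -3.07 to 0.82). Cox8b and Cox7a1, respiratory chain subunits of brown fat and muscle, had differences of -1.28 ± 0.88 and -1.19 ± 0.52. Ucp1, the uncoupling protein of brown fat, stood at 7.92 on the day 0 and 6.61 on the day 3 whole-lung array, and at no more than 4.99 on the other 10.

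Several lists of other tissue around the lung had negative median differences too, with control levels closer between the whole lung and the lobes than that of fat. Of 20 cardiac muscle genes, which in mice are also expressed in the muscle sleeves of pulmonary veins, 19 had a negative difference, with a median of -0.41 and a control level, whole lung minus lobes, of 0.07. Nppa, atrial natriuretic peptide, had the lowest difference of all genes, -2.0 ± 1.0. It had 6.46 and 7.07 early against 8.13 and 9.65 in control in the whole lung, 6.06 and 8.55 early against 8.45 and 8.97 in control in the medial lobe, and 7.82 and 6.87 early against 5.91 and 6.48 in control in the cardiac lobe. Nppa was lower early in the whole lung, overlapping in the medial lobe and higher early in the cardiac lobe. Of 17 B and plasma cell genes 15 had a negative difference, with a median of -0.29. T and NK cell genes went the other way, with 16 of 22 positive and a median of 0.08. So did erythroid and blood genes, with 5 of 7 positive and a median of 0.34. With sham as the only control these 2 medians were -0.03 with 11 of 22 positive and -0.18 with 2 of 7 positive. With day 0 as the only control they were 0.11 with 17 of 22 positive and 0.73 with 7 of 7 positive. The erythroid and blood median was -0.02 on day 3 alone and 0.51 on day 7 alone. The respiratory chain, not drawn up as a list of such tissue, had 72 of 85 negative and a median of -0.17. Its lowest difference was -1.28, the value given above for Cox8b of brown fat and muscle. Of 8 genes of lymph node stroma and follicles 7 had a negative difference, with a median of -0.27. With day 0 as the only control that median was -0.43 with 1 of 8 positive, and with sham as the only control 0.01 with 4 of 8 positive. Glycam1, a ligand for L-selectin on vessels of lymph nodes, was 7.01 on the day 0 array of the whole lung and 4.48 to 4.90 on the other 11. With day 0 as the only control Glycam1 was the sole gene to pass in the difference (log2 -2.38, limma adjusted p = 0.000291), and with sham as the only control Cyp1a1, a xenobiotic-metabolising enzyme, was the sole gene (1.6, adjusted p = 0.00817). The part that fat, heart muscle or lymph node tissue on single arrays had in these differences was not tested.

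**Figure D5:**
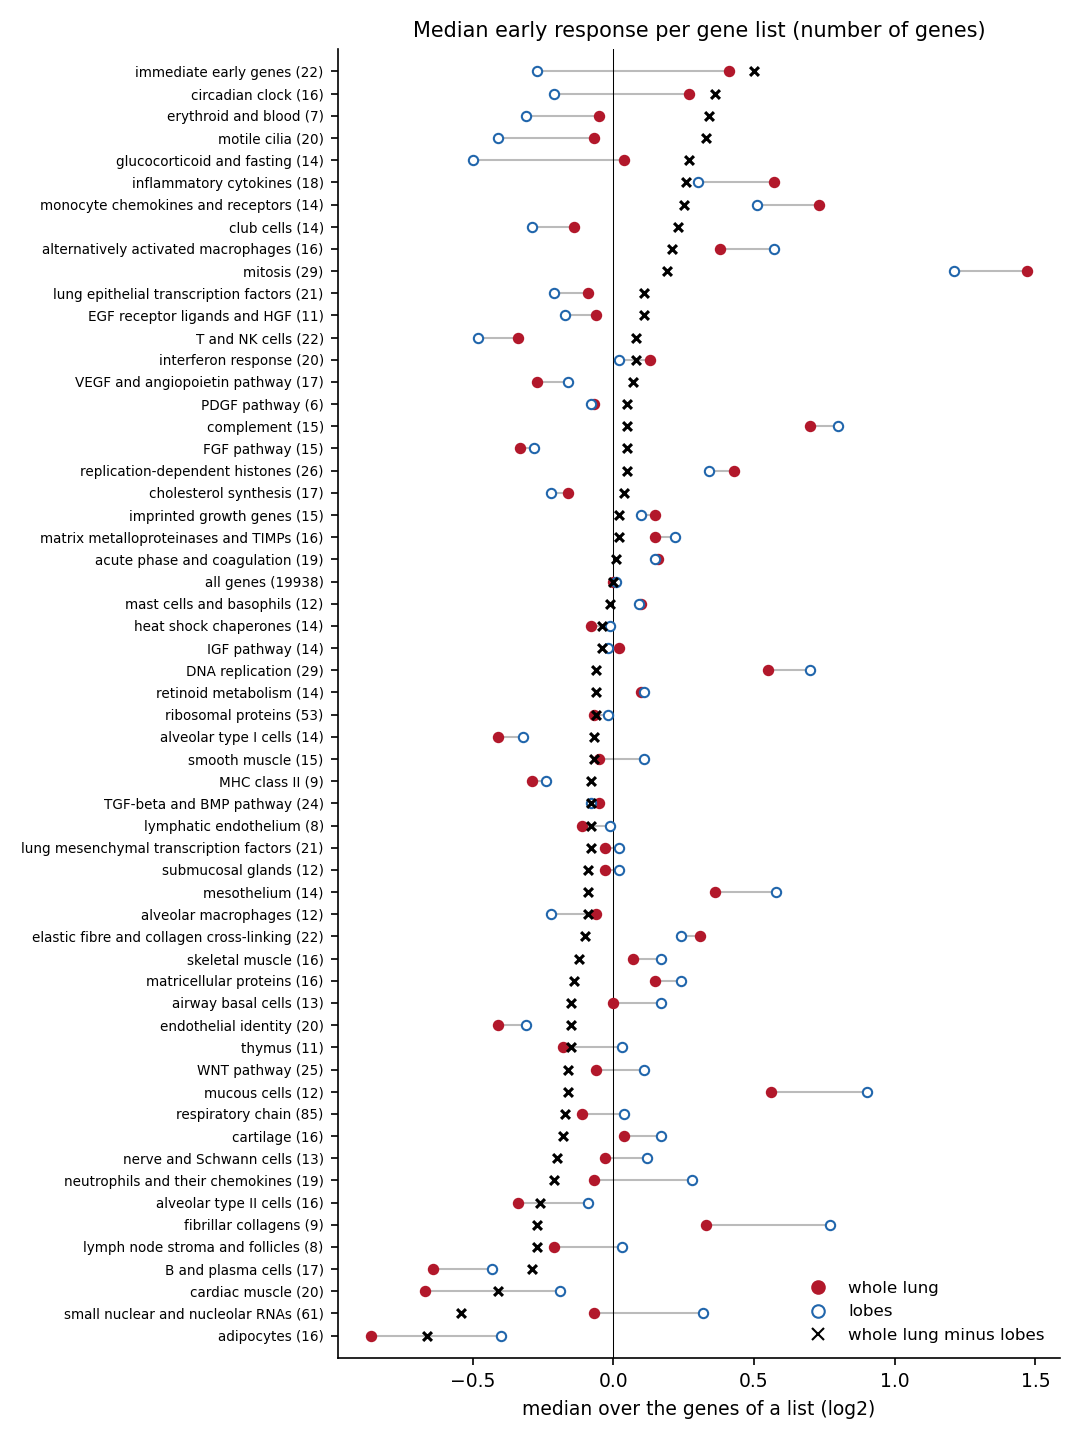
Median early response (log2) over the genes of each of 57 lists and of all genes, in the whole lung (filled) and in the lobes (open), with the median of the differences as a cross. Lists run from the immediate early genes at 0.50 to the adipocytes at -0.66, and the mitosis list has the largest response in both.

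The control level itself differed by no called gene between the whole lung and the lobes (0% called; limma, smallest adjusted p = 0.107), with 2491 genes at an unadjusted p under 0.05. It passed 145 genes without the 2 doubted arrays and 12 without either early cardiac array. Without the whole-lung day 0 array 10 passed, without its sham array 3, and 1 passed without the medial sham array or the day 28 cardiac array. The small RNA genes had a median control level 1.35 higher in the whole lung and a median difference in early response of -0.54, with 11 of 61 positive. That median was -0.08 with day 0 as the only control and -0.84 with sham as the only control. With the small RNA mean of each array as a covariate no gene passed in the difference (513 at an unadjusted p under 0.05), 408 passed in the whole lung, 1760 in the lobes and 396 in the control level.

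After day 7 the regions also did not differ by any called gene. The late response, the mean of days 14, 28 and 56 after pneumonectomy minus the same controls, had 0 genes called in whole lung minus lobes (0% called; limma, smallest adjusted p = 1), with 600 at an unadjusted p under 0.05. It shares its control arrays with the early difference. Side by side, Ccl3 had 0.05 late where it had 1.78 early, Fosb 1.48 where it had 2.02, Adipoq -1.81 where it had -1.13, Nppa -1.68 where it had -2.0, and Glycam1 -1.31 where it had -1.23. Without the whole-lung sham array 2 genes passed in the late difference, and 1 passed with day 0 or with sham as the only control.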

How the data were processed

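Total RNA of 21 samples was measured on Affymetrix arrays. The deposited values are log2 signals, normalized by RMA per the submitters' processing notes, with version and background settings not given in the sources used here. RMA shares probe effects across arrays and compresses differences near background. The labels' protocol names a 3' amplification while the array annotation is that of a whole-transcript array, which was not settled. Of 35556 probe sets, 21789 had 1 gene symbol, 1621 several and 12146 none, and 21698 matched a gene number of the RefSeq table (GRCm38.p6). The brightest probe set stood for each of 19938 genes. Probe sets of close relatives (Ifi208, Rnase2a) may cross-hybridise.

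Means for each region and phase (control, early, late) were fitted with limma (version 3.58.1, under R 4.3.3), every array of the series included, leaving 12 residual degrees of freedom. Benjamini-Hochberg adjustment ran over all genes, with a threshold of 0.05. The scripts were tested on simulated data. Errors are standard errors of the fit. Genes named are the 12 leading differences of each sign with the same sign against each lobe, the 6 largest called rises and falls of each region, and leading or textbook members of the 57 lists; genes outside this rule were chosen after their values were seen. Members and lists were chosen with earlier results of these data known.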

Additional observations from a re-analysis of the deposited data

Results flagged for a closer look

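The interquartile range of the log2 values of the day 7 cardiac lobe array was 3.55, the lowest of the 7 arrays of its region. The gap to its nearest neighbour was 0.589 of the range of the 7 arrays, above the 95% critical value of Dixon's test. It was the only one to pass of 24 gaps looked at, for the highest and the lowest array by 4 measures in 3 regions, and chance alone passes that value in about 1 in 20 such groups. Without this array 338 genes passed in the whole lung, 854 in the lobes and 0 in the difference (limma).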

How the results depend on the processing

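The difference between the whole-lung and the lobe response passed 0 genes under the alternatives run, except for 6 with day 3 as the only early day, 1 with day 0 and 1 with sham as the only control, and 0 to 4 with 1 array left out. The whole-lung count was 29 on the 12 arrays alone, 408 with the small RNA covariate, 3 with day 0 and 1 with sham as the only control, 805 on day 3 alone, 2 on day 7 alone, 465 without the 2 doubted arrays, and 1 to 568 with 1 array left out. The lobe count was 556, 407, 535, 757 and 3098 on the 12 arrays, with day 0 only, sham only, day 3 only and day 7 only, 6 in the medial lobe alone, and 697 to 4816 with 1 array left out. The control level passed 7, 396, 3, 17 and 145 genes on the 12 arrays, with the covariate, with day 0 only, with sham only and without the doubted arrays, and 0 to 12 with 1 array left out. The late difference passed 1 gene with day 0 and 1 with sham as the only control, and 0 to 2 with 1 array left out. The cause of these shifts was not tested, beyond the fewer arrays that some settings use. Of 7342 values of the difference of 205 named genes, 167 changed sign under an alternative, all of genes not called. No gene was called in the main fit, and many of the 205 were picked on these same differences. Of the 36 alternatives 21 only left out 1 array. The count of sign changes therefore does not measure how robust the differences are.

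The regions share time points, not stated animals. With the time point as a replicate block, 0 genes passed in the difference (734 at an unadjusted p under 0.05), the control level and the late difference. Day 3 minus day 7 and day 0 minus sham were also correlated between regions over all genes. The values were 0.36 and 0.30 for whole lung and medial lobe, 0.11 and 0.31 for whole lung and cardiac lobe, and -0.06 and 0.53 for the lobes. The main fit does not use the shared time point. With the block the median standard error of the difference was 0.159, against 0.173 without.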
